A study of Mus musculus with 6 samples.

Results

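The autophagy machinery was followed in D10 T cells, a cloned mouse helper T cell line, after culture at 26°C for 24 h. The 42 genes were found by an exact match of their symbols among the 41079 genes of the deposited table, under a rule that uses no measured value, though the list was drawn up with earlier results of these data known. They comprise 5 genes of the ULK initiation complex, 6 of the class III phosphatidylinositol 3-kinase (PI3-kinase) complex, 7 for membrane supply, lipid transfer and tethering, and 10 of the ubiquitin-like conjugation systems. The other members are 5 genes of the ATG8 family, 7 cargo receptors and 2 transcription factors. Cold-acclimated cells (3 replicates, 24 h at 26°C) were compared with non-acclimated cells (3 replicates, 24 h at 37°C). The labels give all 6 libraries as the same line, named a CD4+ T cell from lymph node, with no allele or other agent that differs between the groups. The labels state that RNA came from independent extraction batches, counted as biological replicates, but do not assign each library to a batch. The p-values below therefore measure the spread between these libraries. Unless stated, they come from a fit that does not pair the libraries by replicate number. Batch could not be told apart further than by the replicate number.

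Macroautophagy encloses cytoplasm in a double membrane, the autophagosome, and delivers it to the lysosome for breakdown. The ULK kinase complex starts the process, the PI3-kinase complex marks the membrane with phosphatidylinositol 3-phosphate, and lipid transfer proteins feed the growing membrane. The conjugation systems then attach small ATG8 proteins to the membrane lipid phosphatidylethanolamine, and cargo receptors bind ATG8 proteins together with the material to be removed. In T cells, autophagy is known to support survival and energy supply, and it removes mitochondria as naive cells mature. Transcript levels do not measure the flow of material through this pathway.

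Levels are given in TPM, a unit that divides reads by gene length and scales each library to the same sum of transcripts. Reads counted on genes, as recovered from the TPM values, numbered 16899628 to 31290854 a library, and 55475 to 78885 of them fell on the 42 genes. Of the 14 T cell markers, 11 had at least 1 TPM in every library. Cd4 went against the label, at 1.09, 0.0351 and 309.7 TPM at 37°C and 1.30, 0.352 and 328 TPM at 26°C in replicates 1, 2 and 3, so that it was near 0 in both libraries of replicates 1 and 2. Cd5 and Trbc1 were at or near 0 in every library. Other T cell genes were low in both libraries of replicate 2. Trac, the constant part of the T cell receptor alpha chain, had 15.0 and 12.8 TPM there and 129 to 207 TPM in the other libraries, Cd28 had 7.35 and 5.61 TPM against 27.9 to 54.5 TPM, and Cd3d had 64.3 and 78.6 TPM against 240.1 to 332 TPM. Summed levels were 3.50 to 6.17 TPM for 10 B cell markers and 2.90 to 21.6 TPM for 10 macrophage markers, with the 2 highest macrophage sums in both libraries of replicate 3. Of these, Ms4a1 and Blnk of the B cell list and Cd14 and Marco of the macrophage list were at 0 in every library. These gaps lie between replicate numbers and not between temperatures. Whether the replicates were separate cultures or stocks of the line cannot be told apart from other differences between them. Since replicate 3 stood apart in Cd4 and in the macrophage sum, and replicate 2 in Trac, Cd28 and Cd3d, members are given for each replicate, and the calls without each replicate are given below. Tested genes had a median log2 fold change of -0.34, which became 0.02 after scaling the libraries by the median of ratios. Changes are therefore also given relative to that median.

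The upstream sequences of 5 members are shown because they belong to members the results turn on, or to members with an E-box, the core letters of the site that the autophagy and lysosome factors TFEB and TFE3 recognise. They are the 250 bases before the RefSeq start on the GRCm38.p6 build, 5′ to 3′ on the strand of the gene, with CACGTG in capitals. Gabarapl1 and Gabarap are ATG8 genes with different responses, Atg9a and Bnip3 were called lower at 26°C, and Atg3 held 2 copies of the E-box. Their positions are chr6:129532942-129533191 (plus strand) for Gabarapl1, chr11:69991120-69991369 (plus) for Gabarap, chr1:75192011-75192260 (minus) for Atg9a, chr7:138909507-138909756 (minus) for Bnip3 and chr16:45158579-45158828 (plus) for Atg3.
Gabarapl1: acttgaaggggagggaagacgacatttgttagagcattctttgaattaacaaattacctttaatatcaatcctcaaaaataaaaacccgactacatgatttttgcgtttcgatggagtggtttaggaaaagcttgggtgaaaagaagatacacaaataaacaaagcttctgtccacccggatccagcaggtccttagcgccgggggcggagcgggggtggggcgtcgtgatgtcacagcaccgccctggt
Gabarap: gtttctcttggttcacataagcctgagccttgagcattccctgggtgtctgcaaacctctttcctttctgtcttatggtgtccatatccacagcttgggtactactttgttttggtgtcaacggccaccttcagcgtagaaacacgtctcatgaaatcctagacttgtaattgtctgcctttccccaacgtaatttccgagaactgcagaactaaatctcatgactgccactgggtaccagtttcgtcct
Atg9a: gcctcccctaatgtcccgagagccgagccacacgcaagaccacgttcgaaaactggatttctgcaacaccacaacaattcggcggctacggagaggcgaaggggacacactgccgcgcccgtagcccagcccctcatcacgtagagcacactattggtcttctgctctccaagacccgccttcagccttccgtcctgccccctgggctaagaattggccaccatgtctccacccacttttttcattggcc
Bnip3: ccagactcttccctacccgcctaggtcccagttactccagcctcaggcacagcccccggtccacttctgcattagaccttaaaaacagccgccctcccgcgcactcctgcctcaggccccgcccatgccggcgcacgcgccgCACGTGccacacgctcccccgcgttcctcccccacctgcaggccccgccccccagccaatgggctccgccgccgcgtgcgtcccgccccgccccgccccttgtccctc
Atg3: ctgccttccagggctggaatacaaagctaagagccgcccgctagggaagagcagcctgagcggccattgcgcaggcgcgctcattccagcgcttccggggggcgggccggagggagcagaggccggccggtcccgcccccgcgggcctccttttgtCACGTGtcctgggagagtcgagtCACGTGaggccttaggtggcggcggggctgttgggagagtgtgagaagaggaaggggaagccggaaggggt

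The RefSeq table held 34 of the 42 members. Searched on both strands, the E-box CACGTG was found in 4 of them (11.8%), which were Atg3, Atg5, Atg7 and Bnip3, and in 9.69% of the 9120 tested genes with an upstream sequence. Over all 32851 upstream sequences of this length the share was 6.02%. The letters begin 94 and 71 bases before the start in Atg3, 14 bases in Atg5, 132 bases in Atg7 and 108 bases in Bnip3. Of these genes, Bnip3 was called downregulated and the others were not called. The FoxO letters GTAAACA and the cAMP response letters TGACGTCA, which do not overlap the E-box, were found in 0 of the 34 members, and in 2.64% and 2.98% of the tested genes. Gabarapl1, the member that changed most in the upward direction, held none of these exact letters in this window. This says nothing of other positions or of variants of these letters, which were not searched.

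Transcripts of the autophagy machinery did not move together after cold acclimation. Gabarapl1, which encodes an ATG8 protein, and Atg16l1, which encodes the scaffold of the conjugation enzyme, were upregulated. On the TPM scale as deposited, the 10 downregulated members were Ulk1, Ulk2, Ambra1, Atg9a, Atg2a, Atg2b, Wipi2, Epg5, Atg12 and Bnip3. They act in initiation, membrane growth, tethering, conjugation and mitophagy. A gene was called when its adjusted p (limma on log2(TPM + 1), Benjamini-Hochberg over 12227 tested genes) was under 0.05 and its log2 fold change was at least 1 in size. Of the 40 tested members, 2 (5%) were called upregulated, against 2.63% of all tested genes, and 10 (25%) were called downregulated, against 16%. Their median log2 fold change was -0.56, or -0.22 relative to all tested genes. The larger share of downregulated members depended on the scaling. It was 4 of 40 with median of ratios scaling (8.79% of all tested genes), 6 with voom (9.18%) and 0 with quantile normalization (6.26%). Median of ratios is the normalization that the authors name, there within DESeq2 and here on TPM. Of the 10 genes, Ulk1, Atg9a, Epg5 and Atg12 kept their calls with it. The calls of all 12 genes were lost without both libraries of replicate 1 or of replicate 2. Those fits called 0% of all tested genes, so this loss is not a feature of the members. Fewer cells with a transcript and less of it per cell cannot be told apart in these bulk libraries.

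TPM at 26°C lay wholly above TPM at 37°C in 4 members (9.69% of all tested genes) and wholly below it in 17 members (31.4%), and overlapped in 19. The 4 higher members were Gabarapl1, Atg16l1, Sqstm1 and Tax1bp1. Counting replicates by number, 21 of the 40 tested members were lower at 26°C in all 3 replicates and 7 were higher in all 3, against 47.9% and 18.2% of all tested genes. Both counts, like that of the 4 members wholly above, are near the shares of all tested genes and are not a feature of the members. The members' median difference relative to all tested genes was -0.41, -0.15 and 0.07 in replicates 1, 2 and 3. The lower position of the members as a group was thus present in replicates 1 and 2 and not in replicate 3. Their differences ranked alike between replicates, with a Spearman coefficient of 0.87 for replicates 1 and 2, 0.69 for replicates 1 and 3 and 0.69 for replicates 2 and 3 over the 40 genes, whose points share libraries. These coefficients were not computed over all tested genes, so whether such agreement is particular to the members was not tested.

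Scaling changed part of this picture. With median of ratios scaling 3 of the 40 tested members were called upregulated (6.56% of all tested genes) and 4 downregulated (8.79%). Both counts are near the shares of all tested genes, so the larger share of downregulated members on the deposited scale was not kept. The downregulated 4 were Ulk1, Atg9a, Epg5 and Atg12. With voom on the recovered reads 3 were upregulated (6.27%) and 6 downregulated (9.18%), the latter being the same 4 with Atg2a and Atg2b. The upregulated gene added in both was Tax1bp1. With quantile normalization the 2 upregulated members remained (5.98% of all tested genes) and 0 were called downregulated by limma (6.26%). At an unadjusted p under 0.05, 6 were then higher and 9 lower, without a computed share of all tested genes to set beside them. Without both libraries of replicate 3, 16 members were called downregulated (25.3% of all tested genes) and 2 upregulated (5.34%). Without both libraries of replicate 1 or of replicate 2, 0 members and 0% of all tested genes were called by limma in either direction. In each of these alternatives 2 members were higher and 9 (22.5%) were lower at an unadjusted p under 0.05, against 3.27% and 16.4% of all tested genes without replicate 1 and 3.11% and 15.1% without replicate 2. Of the 40 tested members, 40 kept the sign of their change without replicate 1, 37 without replicate 2 and 38 without replicate 3. Leaving out a single library also moved the count of downregulated members. It was 1 without the 37°C library of replicate 1 or 2, 1 without the 26°C library of replicate 1 and 2 without that of replicate 2, against 2.82% to 4.91% of all tested genes. Without a replicate 3 library it was 11 (37°C) or 12 (26°C), against 14.9% and 22.3%. Gabarapl1 and Epg5 were called in each of these 6 fits. With the replicate number as a block, which compares libraries of the same number, 12 members were downregulated (21.9%) and 2 upregulated (3.75%).

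**Figure D1:**
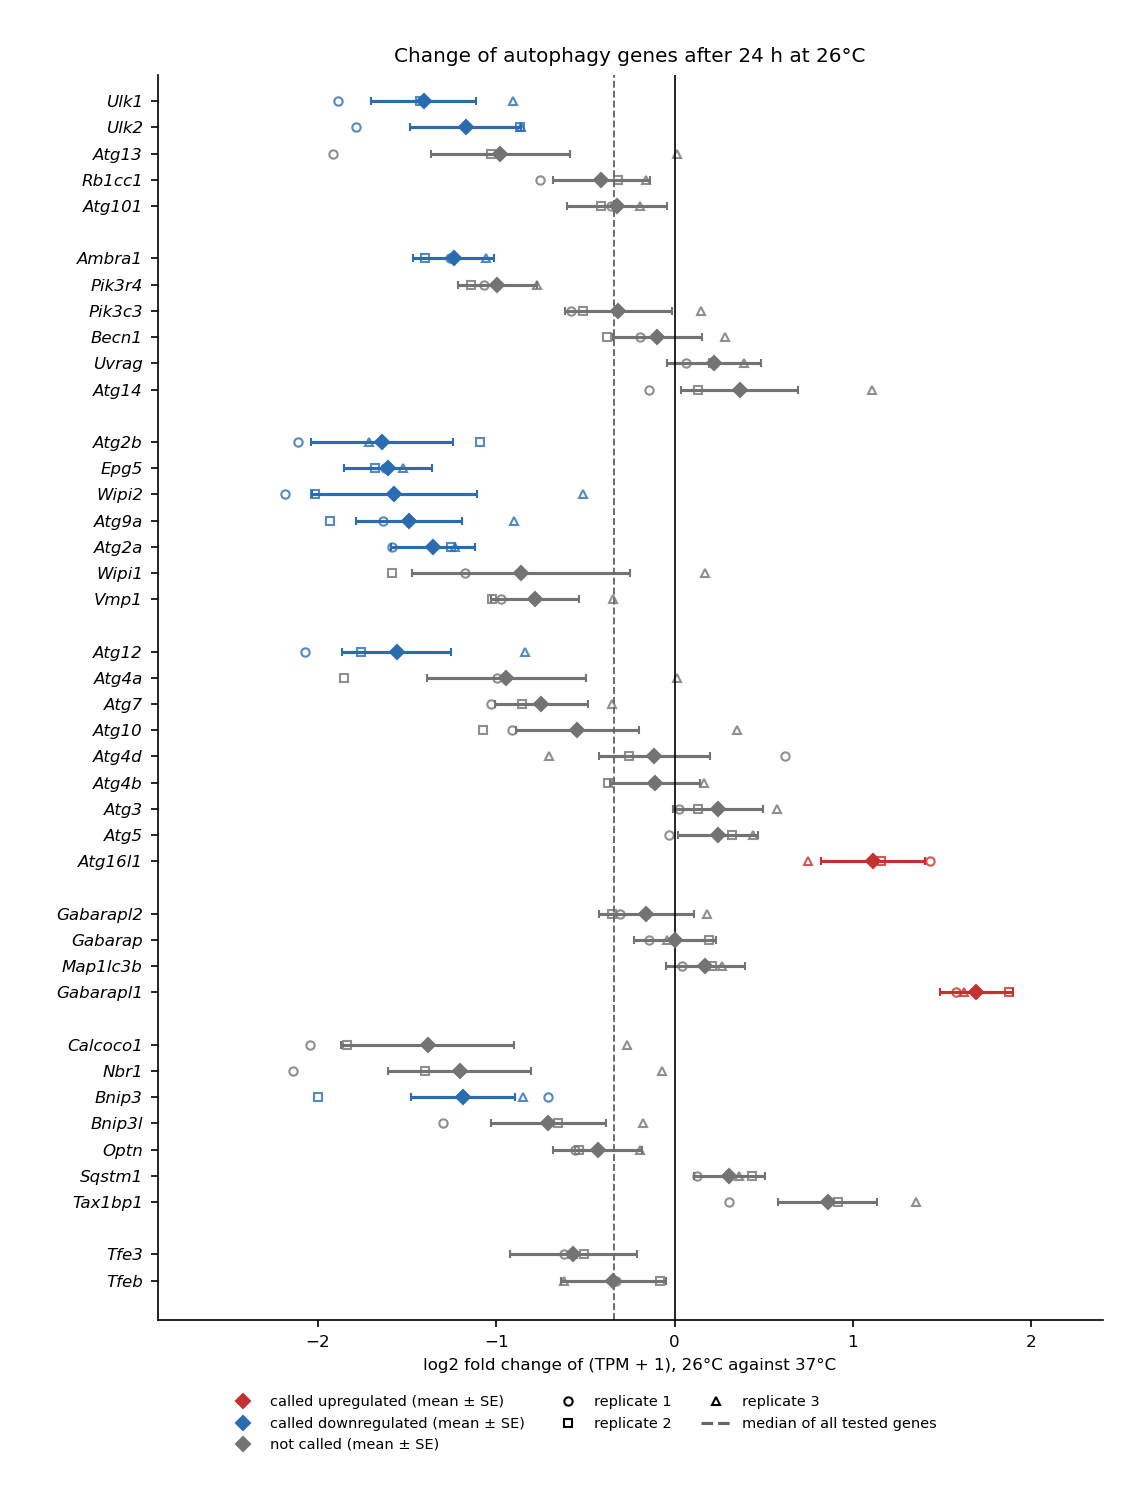
Each row is 1 of the 40 tested members, ordered by role, with the log2 fold change of (TPM + 1) at 26°C against 37°C on the horizontal axis. Diamonds are limma estimates with their SE, open symbols are the 3 replicates, colours mark the call, and the dashed line is the median of all tested genes at -0.34. Gabarapl1 at 1.69 lies farthest to the right, and the 5 called genes of the membrane group lie between -1.64 and -1.36.

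The initiation complex joins the kinases ULK1 and ULK2 to the scaffold FIP200 (Rb1cc1) and to ATG13 and ATG101. Its 2 kinase genes were downregulated, which is 40% of the 5 tested genes of the complex against 16% of all tested genes. Ulk1 (chr5:110932355-110957991, minus strand, GRCm39 as deposited, like all gene positions below) had 18.8, 17.0 and 17.8 TPM at 37°C and 4.34, 5.70 and 9.03 TPM at 26°C in replicates 1, 2 and 3. All 3 cold-acclimated libraries lay below all non-acclimated ones. The log2 fold change was -1.41 (SE 0.30, adjusted p = 0.0194). Ulk2 (chr11:61666424-61750754, minus), the paralog that can stand in for Ulk1, had 16.6, 13.2 and 9.28 TPM at 37°C and 4.10, 6.81 and 4.67 TPM at 26°C. These levels did not overlap either, and the log2 fold change was -1.17 (SE 0.31, adjusted p = 0.0371). With median of ratios scaling Ulk1 kept its call at -1.05 (adjusted p = 0.0400), whereas Ulk2 at -0.82 (adjusted p = 0.115) did not.

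The other 3 genes of the complex did not pass the test, and their levels overlapped between the groups. Atg13 had 36.2, 38.3 and 19.6 TPM at 37°C and 8.87, 18.3 and 19.8 TPM at 26°C, so that its log2 difference was -1.92 in replicate 1, -1.03 in replicate 2 and 0.013 in replicate 3. This gene was thus level between temperatures in replicate 3 only, and without both libraries of replicate 3 it was called downregulated. Rb1cc1 and Atg101 had log2 fold changes of -0.41 and -0.32, near that of all tested genes (-0.34). The 5 genes summed to 117, 119 and 101 TPM at 37°C and 48.6, 68.9 and 80.9 TPM at 26°C.

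The PI3-kinase complex consists of the lipid kinase VPS34 (Pik3c3), its partner VPS15 (Pik3r4) and Beclin 1 (Becn1), to which either ATG14 or UVRAG binds. AMBRA1 ties Beclin 1 to the ULK kinase. Ambra1 (chr2:91560464-91749194, plus) had 38.4, 41.1 and 43.2 TPM at 37°C and 15.4, 15.0 and 20.3 TPM at 26°C, without overlap and with similar values within each group. Its log2 fold change was -1.24 (SE 0.23, adjusted p = 0.0137). After median of ratios scaling the change was -0.85 (adjusted p = 0.0317), which passed on p and missed the size threshold. Pik3r4 had 25.7, 24.7 and 21.4 TPM at 37°C and 11.7, 10.6 and 12.1 TPM at 26°C. Its levels did not overlap, and its log2 fold change of -0.99 (adjusted p = 0.0225) fell just short of the size threshold.

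Becn1, Pik3c3, Atg14 and Uvrag did not pass the test. Becn1 was the most abundant of the group per length, at 167, 192 and 189 TPM at 37°C and 146, 148 and 231 TPM at 26°C, with a log2 fold change of -0.096 that turned to 0.30 with median of ratios scaling. Atg14 and Uvrag, which direct the complex to autophagosome formation and to endosomes, had log2 fold changes of 0.37 and 0.22. Both positive values came with overlapping levels. Atg14 differed by -0.14, 0.13 and 1.11 in replicates 1, 2 and 3, so its positive mean rested on replicate 3.

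The genes for membrane supply, lipid transfer and tethering had the lowest median change of the 7 roles. Of these 7 genes, 5 (71.4%) were downregulated and none was upregulated, against 16% and 2.63% of all tested genes, and all 7 had a log2 fold change below the median of all tested genes. Their median log2 fold change was -1.49, or -1.15 relative to all tested genes, and relative medians were -1.30, -1.14 and -0.66 in replicates 1, 2 and 3. With median of ratios scaling, voom and quantile normalization the relative median was -1.15, -1.22 and -0.94. The downregulated genes then numbered 2, 4 and 0, against 8.79%, 9.18% and 6.26% of all tested genes. The group summed to 214, 241 and 193 TPM at 37°C and 76.6, 87.6 and 120.2 TPM at 26°C. The sums did not overlap.

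Epg5 (chromosome 18), which encodes a tether that brings autophagosomes to late endosomes and lysosomes, had 8.76, 8.32 and 8.85 TPM at 37°C and 2.16, 1.91 and 2.42 TPM at 26°C. The 3 libraries of each group were close together, and the mean was 3.99-fold lower at 26°C. Its log2 fold change was -1.61 (SE 0.25, adjusted p = 0.00898). Epg5 kept its call in 13 of 16 alternatives, and lost it with quantile normalization at -0.97 and without both libraries of replicate 1 or of replicate 2. The fits without replicate 1 or replicate 2 called 0% of all tested genes. Atg9a (chr1:75157509-75168654, minus) encodes the membrane-spanning scramblase whose vesicles seed the autophagosome. It had 22.5, 20.5 and 18.7 TPM at 37°C and 6.57, 4.63 and 9.56 TPM at 26°C, without overlap, with a log2 fold change of -1.49 (SE 0.30, adjusted p = 0.0166).

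ATG2A and ATG2B move lipids from the endoplasmic reticulum to the growing membrane. Atg2a (chr19:6291508-6312332, plus) had 15.8, 14.9 and 13.8 TPM at 37°C and 4.58, 5.65 and 5.33 TPM at 26°C. Atg2b (chr12:105579798-105651554, minus) had 12.0, 10.7 and 21.0 TPM at 37°C and 2.01, 4.51 and 5.72 TPM at 26°C. Neither gene overlapped between the groups, and the highest level of Atg2b was in the 37°C library of replicate 3. The log2 fold changes were -1.36 for Atg2a (SE 0.24, adjusted p = 0.0117) and -1.64 for Atg2b (SE 0.40, adjusted p = 0.0285). With median of ratios scaling both calls were lost. Atg2a at -0.999 (adjusted p = 0.0308) fell just short of the size threshold, and Atg2b at -1.30 had an adjusted p of 0.0560. Both ATG2 genes were lower, and the SE intervals of their changes overlapped.

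WIPI2 reads phosphatidylinositol 3-phosphate and recruits ATG16L1. Wipi2 (chr5:142615269-142655427, plus) had 53.9, 73.4 and 63.4 TPM at 37°C and 11.1, 17.4 and 44.2 TPM at 26°C. The 26°C library of replicate 3 was far above the other two cold-acclimated libraries and still below every 37°C library. The log2 fold change of -1.57 (SE 0.46) was called at an adjusted p of 0.0499, at the edge of the threshold, and was lost in 12 of 16 alternatives, among them leaving out any single library but the 26°C library of replicate 3. Vmp1, a scramblase of the endoplasmic reticulum, had 99.3, 107 and 66.9 TPM at 37°C and 50.0, 52.2 and 52.5 TPM at 26°C, with a log2 fold change of -0.78 (adjusted p = 0.0596) that did not pass. Wipi1 was low, at 0.320 to 6.03 TPM at 37°C and 0.191 to 1.34 TPM at 26°C, on 3 to 90 reads a library, and its log2 fold change of -0.86 did not pass.

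**Figure D2:**
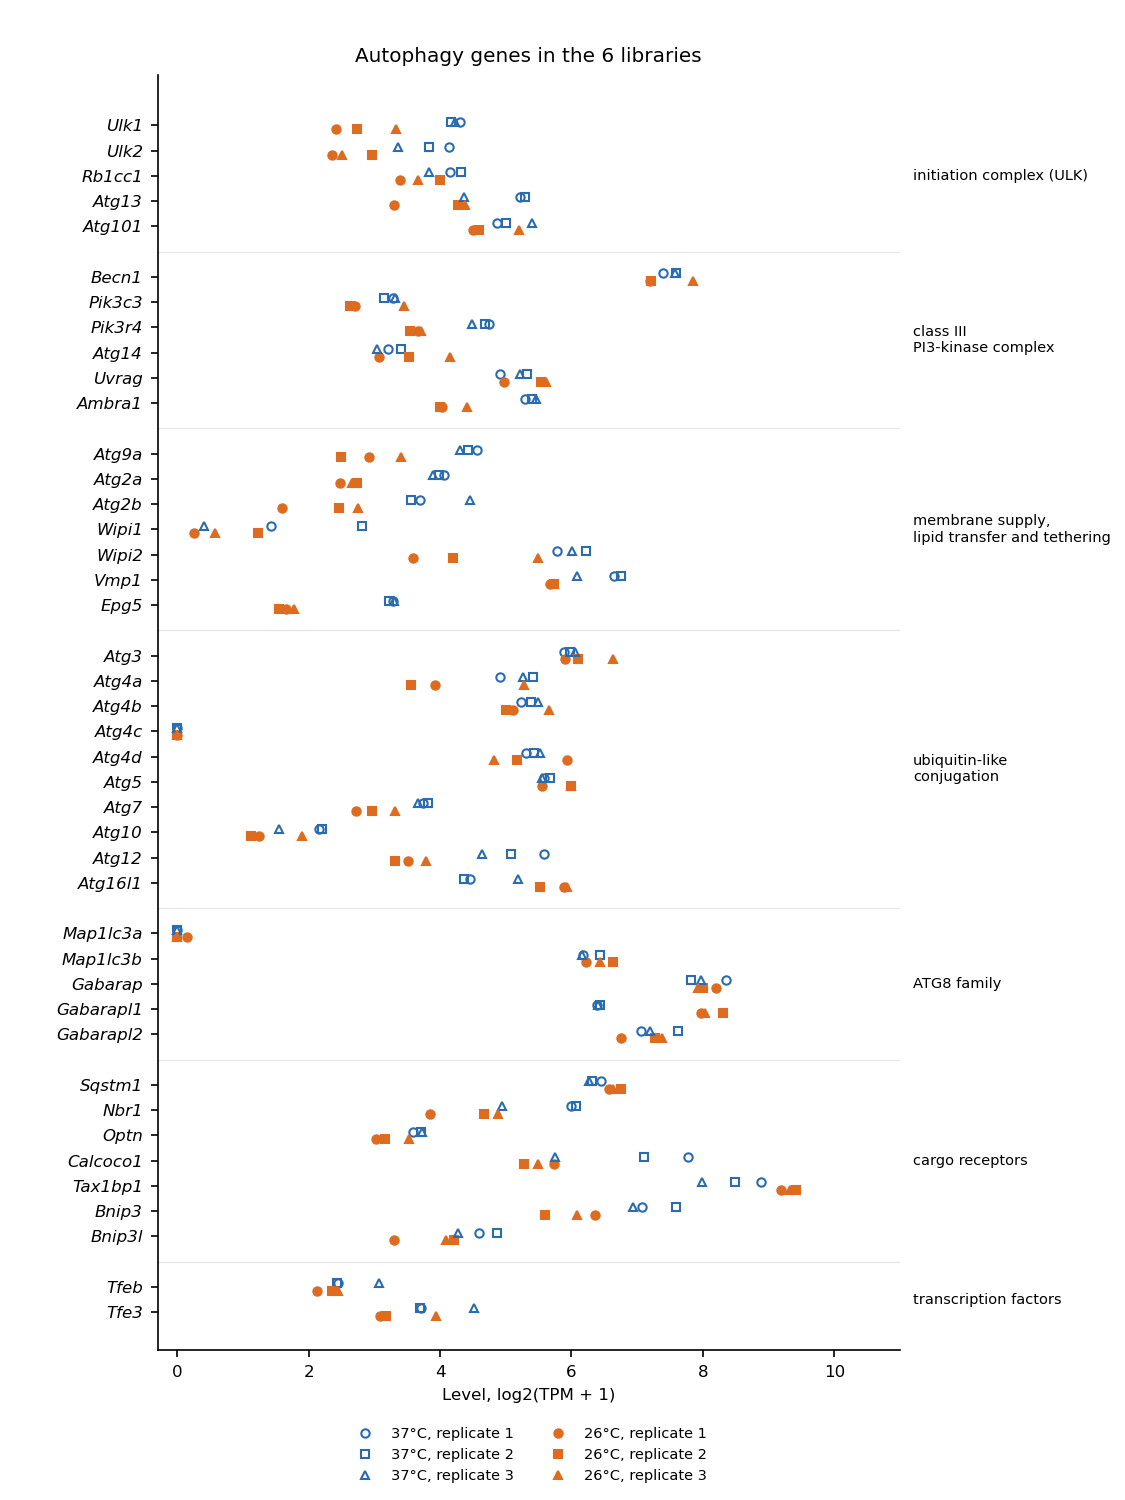
Each row is 1 of the 42 members, grouped by role, with its level in log2(TPM + 1) on the horizontal axis. Open blue symbols are the 3 libraries at 37°C and filled orange symbols the 3 libraries at 26°C, with 1 symbol shape for each replicate. Epg5, Ambra1 and Gabarapl1 show tight groups that are well apart, Atg4c and Map1lc3a lie at or near 0, and Calcoco1 spreads widely at 37°C.

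Conjugation joins ATG12 to ATG5 through the E1-like enzyme ATG7 and the E2-like enzyme ATG10. The ATG12-ATG5 pair with ATG16L1 then helps ATG7 and ATG3 to couple ATG8 proteins to lipid, and the ATG4 proteases trim and release ATG8 proteins. Of the 9 tested genes of this group, 1 (11.1%), Atg12, was downregulated, against 16% of all tested genes. Another 1 (11.1%), Atg16l1, was upregulated, against 2.63%, and 7 were not called. With 1 gene in each direction, these counts are not read as a feature of the group. Atg12 (chromosome 18) had 46.8, 32.8 and 23.8 TPM at 37°C and 10.4, 8.97 and 12.9 TPM at 26°C. All 26°C libraries lay below all 37°C libraries, which themselves spread widely. Its log2 fold change was -1.56 (SE 0.31, adjusted p = 0.0162).

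Atg16l1 (chr1:87683730-87720150, plus) had 21.0, 19.6 and 35.6 TPM at 37°C and 58.4, 45.0 and 60.4 TPM at 26°C. The 37°C library of replicate 3 was the highest of its group and lay below the lowest 26°C library. The mean was 2.15-fold higher at 26°C, with a log2 fold change of 1.11 (SE 0.29, adjusted p = 0.0356). With median of ratios scaling it was 1.50 (adjusted p = 0.0181). Leaving out a single library other than the 37°C library of replicate 3 ended the call, with adjusted p up to 0.130. The small RNA genes Scarna6 and Gm25395 lie within Atg16l1 on the same strand and had 0.722 and 0.361 TPM on average.

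The partner of ATG12, Atg5, differed little, with 46.7, 50.0 and 46.0 TPM at 37°C and 45.7, 62.7 and 62.7 TPM at 26°C and a log2 fold change of 0.24 that did not pass. Atg12 and Atg5 therefore had similar levels per length at 37°C in replicate 1 only. They were already apart at 37°C in replicate 2 (32.8 and 50.0 TPM) and replicate 3 (23.8 and 46.0 TPM). At 26°C they were further apart in every replicate. Atg7 had 12.4, 13.2 and 11.7 TPM at 37°C and 5.57, 6.81 and 8.95 TPM at 26°C, without overlap. Its log2 fold change of -0.75 (adjusted p = 0.0772) did not pass, and neither did those of Atg3 (0.24) and Atg10 (-0.54), the enzymes that hand ATG8 proteins and ATG12 to their targets. Among the proteases, Atg4b and Atg4d had log2 fold changes of -0.11 and -0.11, both of which turned positive with median of ratios scaling (0.28 for each).

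Atg4a had 29.2, 41.6 and 37.6 TPM at 37°C and 14.2, 10.8 and 38.0 TPM at 26°C, so that it was lower at 26°C in replicates 1 and 2 and level in replicate 3. Its log2 fold change of -0.94 (adjusted p = 0.166) did not pass. Atg4a shares 2867 bases with Psmd10 on the opposite strand, and Atg4d shares 1381 bases with Kri1. The strand setting of the counting is not given in the sources used here, so reads of these pairs may not be told apart. Atg4c was listed at 0 in every library.

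The ATG8 family tags the autophagosome membrane and is split into the LC3 and GABARAP branches. Gabarapl1, of the GABARAP branch, was called upregulated in the deposited scale and in 14 of 16 alternatives. The 2 that ended its call left out both libraries of replicate 1 or of replicate 2 (adjusted p = 0.172 and 0.164), and called 0% of all tested genes. It lies at chr6:129510155-129519294 on the plus strand. Its level was 82.8, 85.4 and 84.0 TPM at 37°C and 249.6, 316 and 261 TPM at 26°C, on 1007 to 5039 reads a library. The 3 libraries at 37°C were close together, and every 26°C library was far above them. The mean rose 3.28-fold, with a log2 fold change of 1.69 (SE 0.21, adjusted p = 0.00697). Over the alternatives the log2 fold change was 1.59 to 2.11, with adjusted p from 0.00351 to 0.172. Gabarapl1 shares 93 bases with 1700101I11Rik on the opposite strand, which had 18.1 TPM on average at 37°C and 34.8 TPM at 26°C.

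None of the other ATG8 genes passed the test. Gabarap had 324, 224 and 251 TPM at 37°C and 294, 256 and 243 TPM at 26°C, with a log2 fold change of 0.0025. Gabarapl2 had 132, 197 and 146 TPM at 37°C and 107, 154 and 165 TPM at 26°C, and Map1lc3b, the LC3 gene most used to follow autophagy, had 71.5, 85.0 and 70.8 TPM at 37°C and 73.6, 98.6 and 85.2 TPM at 26°C. Their log2 fold changes were -0.16 and 0.17, and the groups overlapped for each of these 3 genes. Map1lc3a was listed at 0 in 5 libraries and had 0.111 TPM, or 1 read, in the 26°C library of replicate 1.

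The makeup of the ATG8 transcripts shifted towards Gabarapl1. Its share of the summed ATG8 TPM was 13.6%, 14.4% and 15.2% at 37°C and 34.5%, 38.3% and 34.6% at 26°C, a mean of 14.4% ± 0.839 (SD, n = 3) against 35.8% ± 2.17 (SD, n = 3). These shares do not depend on the scaling between libraries. The ratio of Gabarapl1 to Gabarap was 0.256, 0.381 and 0.335 at 37°C and 0.850, 1.23 and 1.07 at 26°C. The summed ATG8 level was 611, 591 and 551 TPM at 37°C and 724, 825 and 755 TPM at 26°C. Gabarap was the most abundant ATG8 transcript per length in all 3 libraries at 37°C, and Gabarapl1 took that place at 26°C in replicates 2 and 3.

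**Figure D3:**
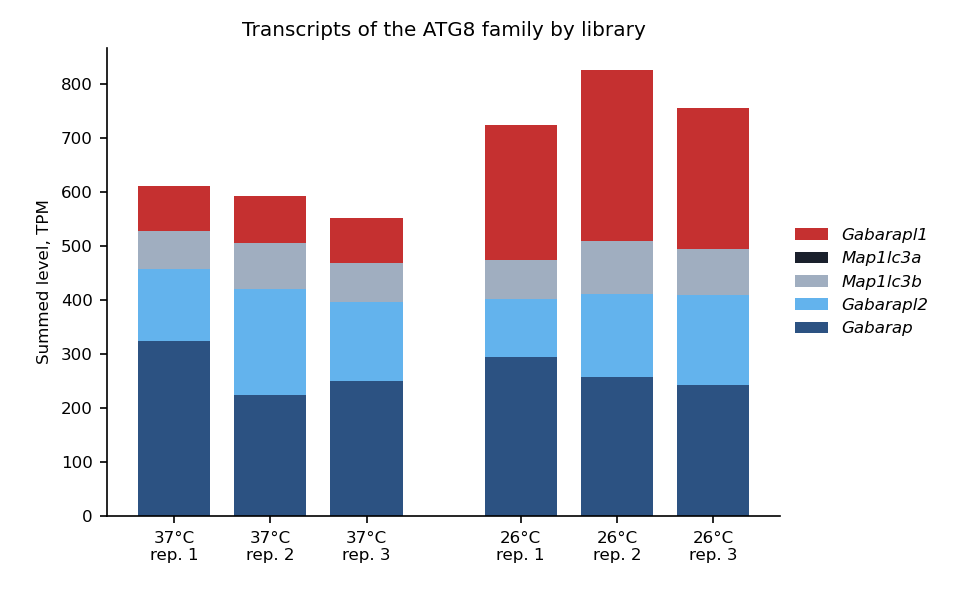
Bars are the 6 libraries and their height is the summed level of the 5 ATG8 genes in TPM, stacked by gene. The red segment, Gabarapl1, is 82.8 to 85.4 TPM at 37°C and 249.6 to 316 TPM at 26°C, while the other segments overlap between temperatures.

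All 7 cargo receptors had levels that did not overlap between the temperatures, 2 of them higher and 5 lower at 26°C, against 9.69% and 31.4% of all tested genes, but only Bnip3 passed the test. Bnip3 (chr7:138492565-138511235, minus) encodes a receptor on the outer mitochondrial membrane that serves mitophagy and is a known hypoxia-induced gene. It had 133, 192 and 121 TPM at 37°C and 81.1, 47.5 and 66.8 TPM at 26°C. The widest gap between the temperatures was in replicate 2. The log2 fold change was -1.19 (SE 0.29, adjusted p = 0.0293), and -0.79 (adjusted p = 0.0856) after median of ratios scaling, where the call was lost. Its relative Bnip3l, also a mitophagy receptor, had 23.1, 28.2 and 18.2 TPM at 37°C and 8.81, 17.6 and 16.0 TPM at 26°C, with a log2 fold change of -0.71 (adjusted p = 0.152) that did not pass. A pseudogene, Bnip3l-ps, had 4.20 TPM on average, and reads may be split between it and Bnip3l.

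Tax1bp1 was the most abundant cargo receptor per length in every library. This ubiquitin-binding receptor, also known to restrain inflammatory signalling, had 469.7, 359 and 252 TPM at 37°C and 580.1, 679.8 and 644 TPM at 26°C. It was higher in every replicate, with log2 differences of 0.30, 0.92 and 1.35. The log2 fold change of 0.86 (adjusted p = 0.0627) did not pass on the deposited scale. With median of ratios scaling it was 1.26 (adjusted p = 0.0277), and with voom 1.26 (adjusted p = 0.0259), both of which passed.

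Sqstm1 encodes p62, the receptor that is itself degraded by autophagy. It had 86.4, 78.5 and 76.2 TPM at 37°C and 94.3, 107 and 98.0 TPM at 26°C. The cold-acclimated libraries were all higher, by a small margin, and the log2 fold change of 0.31 (adjusted p = 0.303) did not pass. Optn, a receptor for mitochondria and bacteria, had 11.1, 12.0 and 12.2 TPM at 37°C and 7.18, 7.98 and 10.6 TPM at 26°C, with a log2 fold change of -0.43 (adjusted p = 0.250).

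Nbr1 and Calcoco1 depended on replicate 3. Nbr1, a receptor related to p62, had 62.7, 65.9 and 29.9 TPM at 37°C and 13.4, 24.3 and 28.3 TPM at 26°C. Calcoco1, a receptor for the endoplasmic reticulum and the Golgi, had 219, 137 and 53.1 TPM at 37°C and 52.3, 37.7 and 43.9 TPM at 26°C. For both genes the 37°C library of replicate 3 was far below the other 37°C libraries and barely above the highest 26°C library. The log2 fold changes of -1.21 (adjusted p = 0.0686) and -1.38 (adjusted p = 0.0782) did not pass. With the replicate number as a block, which is a paired fit, both were called downregulated (adjusted p = 0.0493 and 0.0265), and without both libraries of replicate 3 they were -1.77 and -1.94 (adjusted p = 0.0109 and 0.00821).

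The transcription factors TFEB and TFE3 drive lysosome and autophagy genes and are controlled mainly by their location in the cell. Neither gene passed the test, and their levels overlapped between the temperatures. Tfeb had 4.46, 4.40 and 7.40 TPM at 37°C and 3.35, 4.11 and 4.46 TPM at 26°C, with a log2 fold change of -0.34 beside the median of -0.34 over all tested genes. Tfe3 had 12.1, 12.0 and 21.9 TPM at 37°C and 7.52, 8.09 and 14.4 TPM at 26°C, with a log2 fold change of -0.57 (adjusted p = 0.285). Tfe3 was lower at 26°C in each replicate, with log2 differences of -0.62, -0.51 and -0.57. It overlaps Gm39487 on the opposite strand by 2609 bases.

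**Figure D4:**
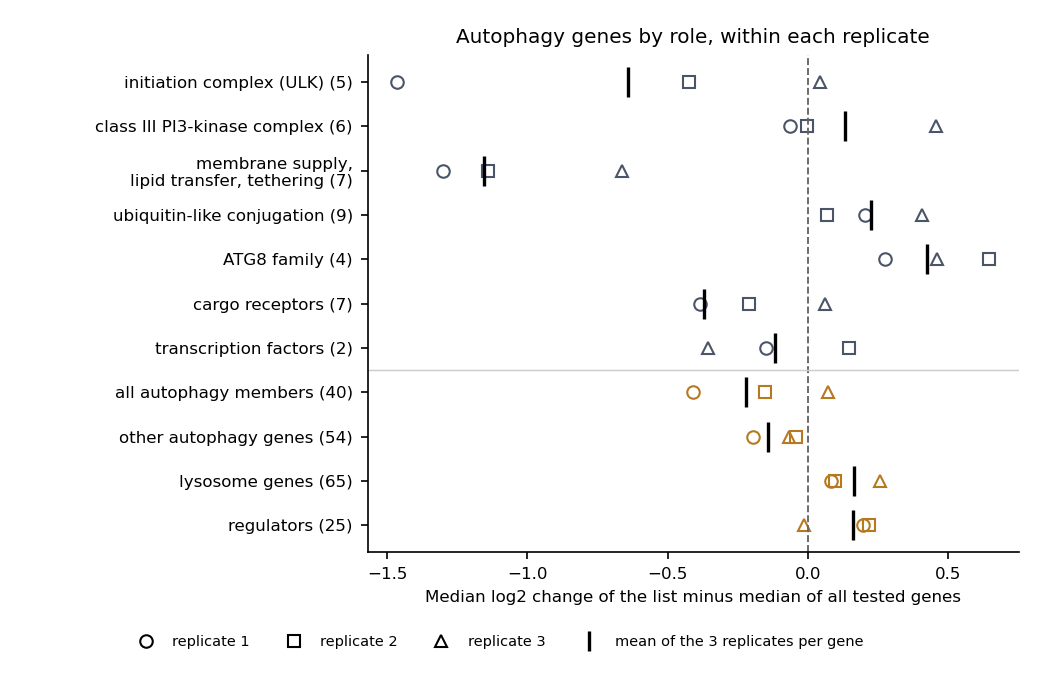
The horizontal axis is the median log2 change of (TPM + 1) of each list minus the median of all tested genes, and rows are the 7 roles, all members and the 3 wider lists, with the number of tested genes in brackets. Open symbols are the 3 replicates and black ticks the mean over replicates per gene. The membrane group lies left of 0 in all 3 replicates (-1.30, -1.14 and -0.66), and the ATG8 family lies right of 0 in all 3.

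Wider lists, written from general knowledge, were read beside the members. Of 54 tested other autophagy genes, 2 (3.70%) were upregulated and 10 (18.5%) downregulated, shares near the 2.63% and 16% of all tested genes, with a median log2 fold change of -0.48, or -0.14 relative to all tested genes. The genes named next are therefore described one by one and not as a feature of the list. Rubcn, which encodes Rubicon, an inhibitor of the UVRAG form of the PI3-kinase complex, had 12.9, 12.4 and 11.6 TPM at 37°C and 0.776, 0.810 and 2.31 TPM at 26°C. It was 9.48-fold lower at 26°C (log2 fold change -2.60, SE 0.32, adjusted p = 0.00699), and no library of one temperature reached the range of the other. Atg16l2, the paralog of Atg16l1, had 14.3, 11.8 and 10.4 TPM at 37°C and 2.38, 2.13 and 3.59 TPM at 26°C, with a log2 fold change of -1.84 (adjusted p = 0.00879). The paralogs thus moved in opposite directions.

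Mtmr14, a phosphatase of phosphatidylinositol 3-phosphate, and Tbc1d5, a Rab7 regulator of the retromer, were also downregulated, with log2 fold changes of -2.28 and -1.74 (adjusted p = 0.0179 and 0.0223). The 2 upregulated genes were Tollip and Wdr45b. Tollip, a ubiquitin-binding adaptor, had 70.7, 96.4 and 51.8 TPM at 37°C and 169, 211 and 125 TPM at 26°C. Wdr45b, a WIPI protein of the family of WIPI2, had 21.1, 19.6 and 22.5 TPM at 37°C and 40.9, 34.9 and 73.8 TPM at 26°C. Neither overlapped, and the log2 fold changes were 1.21 and 1.13 (adjusted p = 0.0331 and 0.0412). Wdr45b was therefore higher where Wipi2 was lower. Rubcn, Atg16l2, Mtmr14, Tbc1d5, Tollip and Wdr45b kept their calls with median of ratios scaling.

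Most lysosome genes were not called. Of 65 tested genes for lysosomal enzymes, membrane proteins and the proton pump, 0 were upregulated by limma and 7 (10.8%) were downregulated, against 2.63% and 16% of all tested genes, with a median log2 fold change of -0.17, or 0.16 above all tested genes. At an unadjusted p under 0.05, 1 was higher and 16 lower. The share of all tested genes at that threshold was not computed, so these counts are not read as a feature of the list. With median of ratios scaling and with voom, 1 and 2 were upregulated (6.56% and 6.27% of all tested genes) and 3 were downregulated in each (8.79% and 9.18%). The named downregulated genes were Clcn7, a chloride transporter of the lysosome (19.3, 20.4 and 30.8 TPM at 37°C and 3.49, 2.65 and 8.85 TPM at 26°C, log2 fold change -2.14), Sgsh, a heparan sulfate enzyme (-1.78), Ctns, the cystine exporter (-1.32), and Pip4p1, a phosphoinositide phosphatase (-1.24). Their adjusted p values were 0.0157, 0.0158, 0.0223 and 0.0152. Clcn7, Sgsh and Ctns kept their calls in both of these alternatives, and Pip4p1 lost its call in both. The 16 tested subunits of the proton pump and its accessory proteins had a median of 0.02, or 0.36 relative to all tested genes, and 1 was downregulated.

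Among 25 tested regulators of autophagy transcription and of TFEB, 0 were upregulated and 4 (16%) downregulated, against 2.63% and 16% of all tested genes, with a median log2 fold change of -0.18, or 0.16 relative to all tested genes. The share of downregulated genes is that of all tested genes, so the 4 genes are likewise described one by one. At an unadjusted p under 0.05, 1 was higher and 6 were lower by limma, a threshold at which the share of all tested genes was not computed. With voom 1 was called upregulated (6.27% of all tested genes). Rragb and Flcn act in the nutrient-sensing Rag GTPase pathway that keeps TFEB out of the nucleus. Rragb had 8.81, 9.07 and 7.12 TPM at 37°C and 0.960, 1.39 and 2.22 TPM at 26°C, with a log2 fold change of -1.91 (adjusted p = 0.00906), and Flcn had a log2 fold change of -1.28 (adjusted p = 0.0197). Zkscan3, a repressor of autophagy genes, and Foxo4, a FoxO factor, had log2 fold changes of -1.21 and -1.31 (adjusted p = 0.0269 and 0.0436). Of these 4 genes, Rragb kept its call with median of ratios scaling and the others did not.

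Median length and level differed between called members and the others, with overlapping ranges. Lengths ran from 1756 to 12083 bases in the downregulated members and from 980 to 15963 bases in those not called. Levels at 37°C ran from 8.65 to 149 TPM and from 2.68 to 360 TPM. The 10 downregulated members had a median gene length of 5531 bases, as read from the TPM steps, against 3614 bases for the 28 not called and 2540.5 bases for the 2 upregulated. Over all tested genes the medians were 4041, 3113 and 2178 bases. Across the 40 tested members, the log2 fold change had a Spearman coefficient of -0.42 with length, and -0.15 across all 12227 tested genes, in values that share the same 6 libraries. Its coefficient with the 37°C level was 0.27 across the members and 0.04 across all tested genes. Downregulated members had a median level of 19.2 TPM at 37°C and 6.64 TPM at 26°C, against 35.4 and 24.5 TPM for the members not called. The part of gene length and of level in these calls was not tested.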

How the data were processed

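RNA sequencing of 3 cold-acclimated and 3 non-acclimated samples was analysed. The authors selected poly(A)+ RNA and made strand-specific libraries. The submitters' processing notes name FastQC 0.11.7, Trimmomatic 0.38, HISAT2 2.1.0, featureCounts 1.6.3 and GRCm39; neither the annotation release nor the strand setting is given there. The values used are the TPM deposited by the authors, which sum to 1000000 in each library. Whole reads were recovered from the steps of these values (100% of 21195 genes above 0 were whole within 1e-06 reads).

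The 12227 genes whose mean TPM reached 1 were fitted on log2(TPM + 1) by limma 3.58.1 (R 4.3.3), using a trended prior variance and Benjamini-Hochberg adjustment; fold changes of low genes are understated on this scale. Calls needed a change of 1 or more on the log2 scale, in either direction, beside an adjusted p below 0.05. Python 3.11.15, numpy 2.4.6, pandas 2.3.3 and matplotlib 3.10.9 were used for other values, and the fits were tested on simulated data. Alternatives were another pseudocount (0.1), no filter, a mean TPM of at least 5, median of ratios scaling, quantile normalization, voom on recovered reads, the replicate block, leaving out each library, and leaving out both libraries of replicate 3. Leaving out both libraries of replicate 1 and of replicate 2 was added after seeing the data. Replicate numbers paired the libraries in the replicate block and in the differences by replicate, and not in the main fit. Deviations from the group means correlated at 0.48, 0.50 and 0.51 for the same number and at -0.41 to 0.02 for different numbers.

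Named were all 42 members and, of each wider list, at most 4 called genes per direction with the smallest p. The members and the lists were chosen with earlier results on these data known. Gene symbols and positions are as deposited; all 42 members overlapped their GENCODE vM39 gene. Upstream sequences are from RefSeq.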

Additional observations from a re-analysis of the deposited data

How the results depend on the processing

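Without both replicate 1 libraries or both replicate 2 libraries, alternatives chosen after seeing the data, 0 genes of any list and 0% of all tested genes were called by limma. The relative median of other autophagy genes was then -0.017 and -0.058. In the other 14 alternatives Gabarapl1 kept its direction and its call, and Epg5 kept its call in all but quantile normalization. Members called downregulated numbered 10 (16% of all tested genes), and 6 with no filter on low values (5.29%). They numbered 4 with median of ratios scaling (8.79%), 0 with quantile normalization (6.26%) and 6 with voom on recovered reads (9.18%). Without both replicate 3 libraries they numbered 16 (25.3%), and the range was 1 to 12 when 1 library was left out (2.82% to 22.3%). Members called upregulated numbered 2 (2.63% of all tested genes), and 1 with no filter (0.868%), with a range of 1 to 2 when 1 library was left out (0.483% to 3.75%). The members' relative median was -0.22, and -0.47 with no filter, with a range of -0.40 to -0.10 when 1 library was left out. Without the filter the reference median is that of many more low genes. With the replicate block, which pairs libraries by number, 12 members were called downregulated (21.9% of all tested genes) and 2 upregulated (3.75%). Nbr1 and Calcoco1 were the added genes, and the block changed no other call among the members.

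For other autophagy genes, 5 were upregulated with median of ratios scaling and with voom, 3 with quantile normalization, 0 with no filter, 1 without both replicate 3 libraries and 0 to 1 without 1 library. Downregulated were 5 with no filter, 5 with median of ratios, 4 with quantile normalization, 6 with voom, 14 without both replicate 3 libraries and 2 to 13 without 1 library. The relative median was -0.35 with no filter, 0.013 with quantile normalization and -0.12 to -0.0088 without 1 library. For lysosome genes, 1 (median of ratios) and 2 (voom) were upregulated. Downregulated were 3 with no filter, 3 with median of ratios, 1 with quantile normalization, 3 with voom, 12 without both replicate 3 libraries and 0 to 13 without 1 library, and the relative median was -0.080 with no filter, -0.049 with quantile normalization and -0.031 to 0.26 without 1 library. For regulators, 1 was upregulated with quantile normalization and with voom. Downregulated were 2 with no filter, 1 with median of ratios, 1 with quantile normalization, 2 with voom and 0 to 4 without 1 library, and the relative median was -0.11 with no filter, -0.051 with quantile normalization and 0.16 to 0.31 without 1 library. With the replicate block 12 other autophagy genes, 8 lysosome genes and 5 regulators were downregulated, against 21.9% of all tested genes. Shares of all tested genes moved as well. The downregulated share was 5.29% with no filter, 8.79% with median of ratios and 6.26% with quantile normalization. It was 9.18% with voom, 25.3% without both replicate 3 libraries and 2.82% to 22.3% without 1 library. In the same order the upregulated share was 0.868%, 6.56%, 5.98%, 6.27%, 5.34% and 0.483% to 3.75%. The counts are therefore not read as features of the lists. The cause of these shifts was not tested.

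Members whose log2 fold change changed sign were not called in either state. With median of ratios scaling these were Atg101 (0.064), Becn1 (0.30), Pik3c3 (0.035), Atg4b (0.28), Atg4d (0.28) and Gabarapl2 (0.24), and with voom the same genes (0.057, 0.30, 0.049, 0.29, 0.26 and 0.24). With quantile normalization they were Rb1cc1 (0.15), Atg101 (0.073), Pik3c3 (0.33), Atg4b (0.21), Atg4d (0.20), Atg10 (0.032), Gabarap (-0.014), Optn (0.18), Tfeb (0.32) and Tfe3 (0.019). Without both replicate 3 libraries they were Atg14 (-0.0060) and Atg4d (0.18), and without both replicate 2 libraries Becn1 (0.046), Atg4b (0.023) and Gabarap (-0.093). When 1 library was left out, Becn1 ranged from -0.31 to 0.015, Atg4b from -0.31 to 0.016, Atg4d from -0.42 to 0.13, Gabarap from -0.11 to 0.15 and Gabarapl2 from -0.28 to 0.031.

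With 3 libraries a group, a change that does not pass the test is not shown to be absent. Wipi1 rested on as few as 3 reads and Atg10 on as few as 27 reads in a library, which limits what can be read from them.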
